A study of Homo sapiens with 24 samples.

Results

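Androgen on-off genes of LNCaP:C4-2 prostate cancer cells are described here. They are 8 genes, of the 60675 counted, that were selected on their measured counts, which differed with the synthetic androgen R1881 or with METTL3 knockdown in LNCaP:C4-2, and each was followed through both lines, both siRNAs and both treatments. The members are SLC26A3, CHRNA2, F5, NBL1, PLA2G4E, PNLIPRP3, PLA2G2A and TRIM47. TRIM47 was present in every group and differed 2.16-fold with R1881 in siSCR cells, so that on and off describe the other 7. The LNCaP:C4-2 values of all 8 are the values that chose them and are given as a description with no test, whereas 22Rv1 was not used by the choice and was tested. No numerical threshold was part of the choice.

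Total RNA was sequenced from LNCaP:C4-2, a castrate-resistant derivative of the LNCaP prostate cancer line that remains sensitive to enzalutamide, and from 22Rv1, an enzalutamide-resistant prostate cancer line. Each line was transfected with a non-targeting control siRNA (siSCR) or a pool of siRNAs against METTL3 (siMETTL3), transfected again after 48 h, and then kept for 72 h with 1 nM R1881 or with ethanol (vehicle). All 8 groups grew in phenol-red-free medium with charcoal-stripped serum, which is depleted of steroids, and each group has 3 libraries. The labels do not say whether the libraries of a group came from separate cultures, so that p-values measure the spread between these libraries, which may be technical.

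Androgens are steroid hormones that change the transcription of many genes in prostate cells. R1881 is a synthetic androgen that cells degrade slowly. Luminal prostate cells answer androgen by making and secreting proteins and lipids, and kallikreins such as KLK3 are the usual readout. METTL3 is the catalytic subunit of the complex that methylates adenosine in mRNA (m6A), a mark that is read by proteins acting on splicing, decay and translation. The 8 genes do not share a function. SLC26A3 exchanges chloride for bicarbonate across the cell membrane and is best known from the gut, and CHRNA2 is a subunit of ligand-gated nicotinic acetylcholine receptors. F5 is coagulation factor V, the cofactor of factor Xa in making thrombin, and NBL1 is a secreted antagonist of bone morphogenetic proteins (BMPs). PLA2G4E and PLA2G2A are phospholipases A2 of the cytosolic and the secreted type, and PNLIPRP3 belongs to the pancreatic lipase family. TRIM47 is a RING-type E3 ubiquitin ligase.

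Libraries held between 15716224 and 21306019 counts (median 17671722). METTL3, the targeted gene, was at 28.7 ± 2.35 and 33.4 ± 2.67 CPM (counts scaled to the size of each library, mean ± SD, n = 3 throughout) in LNCaP:C4-2 with siSCR, vehicle and R1881 respectively, and at 19.03 ± 1.36 and 22.4 ± 0.370 with siMETTL3. In 22Rv1 it was at 46.2 ± 0.690 and 50.4 ± 1.46 with siSCR and at 24.9 ± 0.721 and 22.4 ± 2.01 with siMETTL3. The 10 luminal prostate markers checked, KLK3 among them, averaged at least 1 CPM in every group. The 14 markers of immune, stromal, endothelial, basal and neuroendocrine cells summed to between 40.5 and 149 CPM, and 4 to 6 of them had no count in a given group. Between 1 and 3 of these 14 averaged at least 1 CPM in a given group. They were COL1A1 in every group, SYP in all but LNCaP:C4-2 with siSCR and R1881, ACTA2 in the 22Rv1 groups and PTPRC in LNCaP:C4-2 with siSCR and vehicle. Replicate 1 of siSCR with R1881 and replicate 1 of siMETTL3 with vehicle, both in LNCaP:C4-2, stood apart from their replicates: the chi-square per degree of freedom against the others was 30.5 and 30.9 for the former and 38.6 and 41.8 for the latter, against 3.06 and 4.11 between the remaining libraries of each group. Mitochondrially encoded genes took 7.08% of counts in the former, with 9.73% and 9.69% in its replicates, and 9.60% in the latter, with 6.89% and 7.03% in its replicates. In 22Rv1, siSCR vehicle replicate 3 and siMETTL3 vehicle replicate 1 stood apart to a smaller degree (11.8 to 17.7 per degree of freedom).

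The promoter windows of 4 members whose LNCaP:C4-2 counts lay at or near 0 in 1 of the treatments are shown so that the regions under comparison can be seen. The letters are the 250 bases before the annotated start, on the strand of the gene, 5′ to 3′, from RefSeq on GRCh38.p14: SLC26A3 at chr7:107803224-107803473 (minus strand), PLA2G4E at chr15:42050704-42050953 (minus), PNLIPRP3 at chr10:116427597-116427846 (plus) and PLA2G2A at chr1:19980435-19980684 (minus). The PLA2G4E window lies inside the gene as the authors counted it, which reaches to 42051190. Of the windows searched but not shown, that of NBL1 (19642979 to 19643228) lies inside the counted gene, which starts at 19640554. That of F5 (169586482 to 169586731) overlaps the counted gene, which reaches to 169586588. RefSeq lists 3 starts for PLA2G2A and 5 for NBL1, and the start nearest to the counted gene was used, so that other starts were not searched. The capitals mark the only match to a motif searched in these windows.
SLC26A3: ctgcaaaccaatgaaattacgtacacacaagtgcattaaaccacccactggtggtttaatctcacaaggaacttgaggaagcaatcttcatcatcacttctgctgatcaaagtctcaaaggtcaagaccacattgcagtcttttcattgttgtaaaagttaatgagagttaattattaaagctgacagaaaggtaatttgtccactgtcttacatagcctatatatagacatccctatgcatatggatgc
PLA2G4E: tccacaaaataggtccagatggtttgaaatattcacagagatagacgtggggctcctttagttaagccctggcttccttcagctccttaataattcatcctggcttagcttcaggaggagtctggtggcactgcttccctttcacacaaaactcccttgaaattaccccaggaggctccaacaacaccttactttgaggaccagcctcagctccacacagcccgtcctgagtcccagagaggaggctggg
PNLIPRP3: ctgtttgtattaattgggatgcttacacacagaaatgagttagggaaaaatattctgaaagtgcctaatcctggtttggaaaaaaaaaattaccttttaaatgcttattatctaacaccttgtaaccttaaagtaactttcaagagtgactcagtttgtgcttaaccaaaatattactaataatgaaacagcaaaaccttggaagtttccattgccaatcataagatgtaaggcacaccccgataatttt
PLA2G2A: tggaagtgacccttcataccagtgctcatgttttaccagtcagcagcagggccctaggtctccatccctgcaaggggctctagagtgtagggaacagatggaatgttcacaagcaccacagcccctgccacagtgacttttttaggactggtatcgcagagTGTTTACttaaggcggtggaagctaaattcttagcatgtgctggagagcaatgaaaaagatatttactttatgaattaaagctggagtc
Windows of 7 members were found (none was used for CHRNA2). They were searched on both strands for the steroid hormone response half-site AGAACA, for a full element (2 such half-sites facing each other with 3 bases between), for the forkhead motif TGTTTAC and for the TATA box TATAAA. Of 35116 promoters of this length, 12.4% held the half-site, 0.00285% the full element, 2.98% the forkhead motif and 10.7% the TATA box. Among the 7 windows the single match was a forkhead motif in PLA2G2A that begins 89 bases before the start (position -89). A match describes letters, and its absence says only that these letters are not in the window.

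Read as a set, the members fell into 3 patterns in LNCaP:C4-2 with siSCR. SLC26A3, CHRNA2, F5, NBL1, PLA2G4E and PNLIPRP3 had between 0 and 6 counts in every vehicle library and between 60 and 323 in every R1881 library. PLA2G2A ran the other way, from 368 to 401 counts with vehicle to 2 to 4 with R1881. TRIM47 was present in both, at 56 to 72 counts with vehicle and 17 to 40 with R1881. All 8 members had groups that did not overlap, 6 of them higher and 2 lower with R1881. Of the 16435 genes tested in this line, 20.9% were higher with R1881 in this sense and 20.5% lower. Because the choice of members used this contrast, nothing is read from that count.

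**Figure D1:**
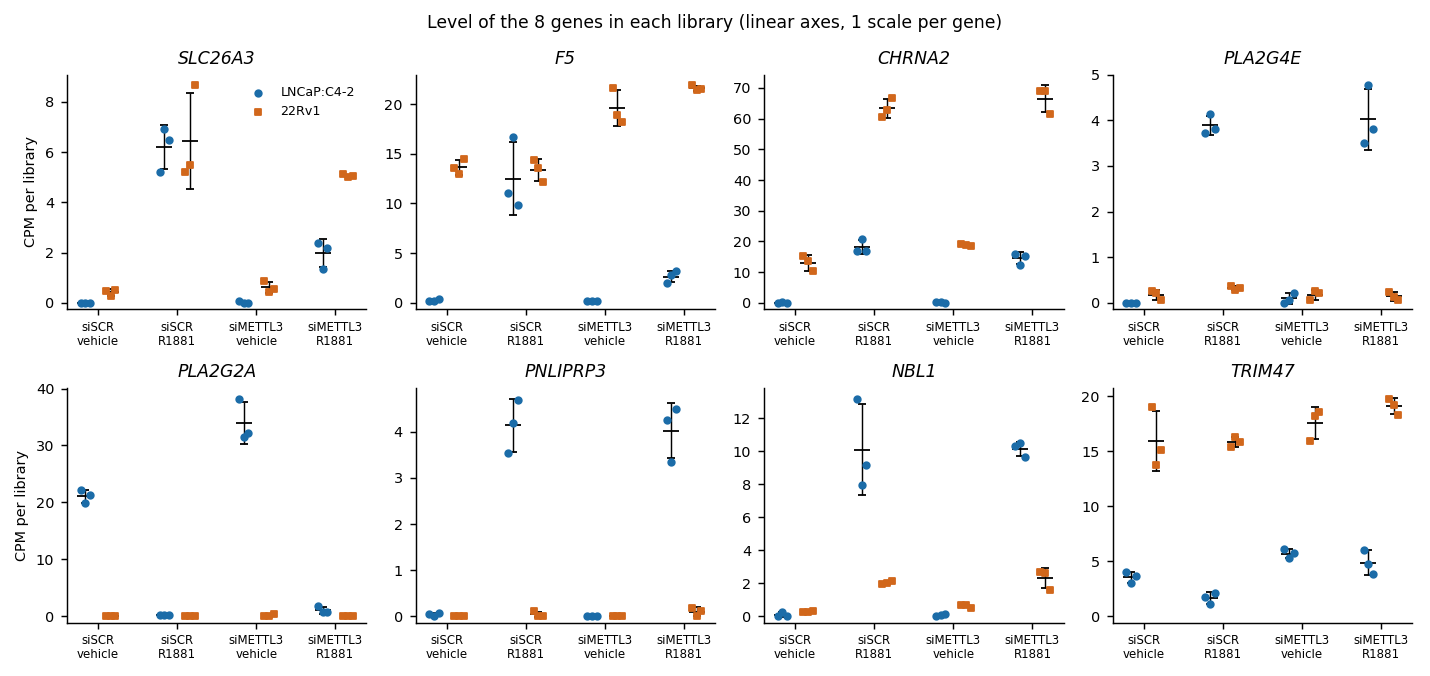
Level of each gene in CPM (y axis, linear, 1 scale per panel) in the 24 libraries, by siRNA and treatment (x axis), with points for libraries, dashes for means and bars for the SD (n = 3). In LNCaP:C4-2 (circles) 6 genes lie near 0 with vehicle and well above it with R1881, PLA2G2A does the opposite, and in 22Rv1 (squares) F5 and TRIM47 lie near the same level in vehicle and R1881 with siSCR.

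SLC26A3 (ENSG00000091138) lies on chromosome 7 from 107765467 to 107803225 (GRCh38, minus strand). In LNCaP:C4-2 with siSCR it had no count in any of the 3 vehicle libraries and 88, 107 and 123 with R1881. In siMETTL3 cells it had 1, 0 and 0 with vehicle and 41, 24 and 38 with R1881. The vehicle libraries were thus empty or held 1 count, and every siMETTL3 library with R1881 lay below every siSCR library with R1881. With R1881 it reached 6.20 ± 0.886 CPM in siSCR cells and 1.98 ± 0.545 CPM in siMETTL3 cells, 3.13-fold lower. Against a floor of 3 counts per library, the siSCR libraries were at least 37.2-fold higher with R1881 than with vehicle. With siMETTL3 the log2 ratio to vehicle was 6.54, with a 95% counting interval of 4.16 to 11.99 that reflects the lone vehicle count. That count came from the vehicle library that stood apart, and without it the vehicle group is at 0 and the log2 ratio is at least 3.56. Intervals and floors cover counting error only.

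In 22Rv1, SLC26A3 was not empty with vehicle: it had 9, 5 and 9 counts with siSCR and 16, 10 and 11 with siMETTL3. With R1881 it had 97, 99 and 163 counts with siSCR and 84, 87 and 91 with siMETTL3. Every R1881 library exceeded every vehicle library of its siRNA. In edgeR's quasi-likelihood test SLC26A3 rose with R1881 by a log2 fold change of 3.96 (SE 0.294, adjusted p = 6.74e-10) with siSCR and of 3.04 (SE 0.277, adjusted p = 1.88e-08) with siMETTL3. It had under 10 counts in every siSCR vehicle library and passed the filter on low counts through other groups. Both p-values are therefore given as a description. Its R1881 level with siSCR, 6.46 ± 1.91 CPM, was close in size to that of LNCaP:C4-2, and the spread came from replicate 3, at 8.66 CPM. The siMETTL3 difference was not called with R1881 (log2 fold change -0.37, SE 0.201, adjusted p = 0.209) or with vehicle (0.55, adjusted p = 0.576).

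CHRNA2 (ENSG00000120903; chromosome 8, 27459761 to 27479883, minus strand) had 0, 3 and 1 counts in LNCaP:C4-2 with siSCR and vehicle and 288, 323 and 318 with R1881. In siMETTL3 cells the counts were 2, 5 and 2 with vehicle and 274, 216 and 263 with R1881. The log2 ratio of R1881 to vehicle was 7.97 (95% counting interval 6.57 to 9.81) with siSCR and 6.39 (5.44 to 7.50) with siMETTL3. Of the 4 counts with siSCR and vehicle, 3 came from replicate 2, and without it the former log2 ratio was 9.30. Both treatments of both siRNAs were far apart, whereas the siRNAs differed little: the R1881 level was 18.2 ± 2.28 CPM in siSCR cells and 14.5 ± 1.95 CPM in siMETTL3 cells, 1.26-fold lower, and the libraries did not overlap.

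CHRNA2 was already expressed in 22Rv1 without androgen. Vehicle libraries held 291, 257 and 188 counts with siSCR and 357, 449 and 362 with siMETTL3, and R1881 libraries held 1123, 1130 and 1255 with siSCR and 1131, 1199 and 1110 with siMETTL3. The vehicle level of 13.04 ± 2.51 CPM in 22Rv1 stands beside 0.0729 ± 0.0815 CPM in LNCaP:C4-2. CHRNA2 rose with R1881 in 22Rv1 by a log2 fold change of 2.27 (SE 0.110, adjusted p = 5.83e-13) with siSCR and of 1.80 (SE 0.106, adjusted p = 1.48e-11) with siMETTL3. With vehicle, siMETTL3 against siSCR gave 0.53 (SE 0.115, adjusted p = 0.0342), which is under the 1.5-fold change that a call also required. Without siSCR vehicle replicate 1 that difference was 0.66 and was called. With R1881 it was 0.05 (adjusted p = 0.747).

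F5 (ENSG00000198734; chromosome 1, 169514166 to 169586588, minus strand) had 3, 3 and 6 counts in LNCaP:C4-2 with siSCR and vehicle and 186, 258 and 186 with R1881. With siMETTL3 it had 2, 3 and 3 with vehicle and 34, 49 and 55 with R1881. Every R1881 library was above every vehicle library, and every siMETTL3 library with R1881 was below every siSCR library with R1881. In CPM, F5 was at 0.225 ± 0.106 and 12.5 ± 3.66 with siSCR, and at 0.154 ± 0.0232 and 2.64 ± 0.604 with siMETTL3. The log2 ratio of R1881 to vehicle was 5.80 (4.97 to 6.75) with siSCR and 4.10 (3.07 to 5.33) with siMETTL3. Under R1881 the level was 4.73-fold lower with siMETTL3 (log2 ratio -2.24, -2.49 to -1.95), and without the siSCR library that stood apart the log2 ratio was -2.32.

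In 22Rv1 the order of the F5 groups was different. It had 261, 242 and 265 counts with siSCR and vehicle and 267, 244 and 229 with R1881, so that the treatments overlapped. With siMETTL3 it had 406, 452 and 356 with vehicle and 360, 371 and 389 with R1881, and all 6 libraries lay above all 6 siSCR libraries. F5 was not called for R1881 with siSCR (log2 fold change -0.04, SE 0.103, adjusted p = 0.818) or with siMETTL3 (0.12, SE 0.0963, adjusted p = 0.383). It rose with siMETTL3 under R1881 by 0.68 (SE 0.10, adjusted p = 0.000549), from 13.4 ± 1.11 to 21.6 ± 0.265 CPM, and this was the single member called for knockdown in 22Rv1. With vehicle the siMETTL3 difference was 0.52 (SE 0.0992, adjusted p = 0.0129), under 1.5-fold. Mitochondrially encoded genes took 3.93% to 4.24% of counts in the siMETTL3 libraries with R1881 and 4.96% to 5.28% in the siSCR libraries with R1881. Their part in the result was not tested.

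NBL1 (ENSG00000158747; chromosome 1, 19640554 to 19658456, plus strand) had 0, 5 and 0 counts in LNCaP:C4-2 with siSCR and vehicle and 223, 123 and 174 with R1881. With siMETTL3 it had 0, 1 and 2 with vehicle and 177, 185 and 168 with R1881. The log2 ratio of R1881 to vehicle was 6.82 (5.54 to 8.40) with siSCR and 7.51 (5.89 to 9.73) with siMETTL3. All 5 counts of the siSCR vehicle group came from replicate 2, without which that group is at 0 and the log2 ratio is at least 5.90. Without siMETTL3 vehicle replicate 3 the latter log2 ratio was 8.51. The R1881 levels under both siRNAs were the same within their spread, 10.1 ± 2.75 CPM in siSCR cells and 10.2 ± 0.433 CPM in siMETTL3 cells (log2 ratio 0.01, counting interval -0.17 to 0.18). The highest siSCR library was the one that stood apart, and without it the log2 ratio of siMETTL3 to siSCR was 0.25. The readthrough gene MICOS10-NBL1 shares 1638 of the 3465 exon bases of NBL1 (47.3%), and fragments there were dropped by the counting, so that the counts describe the remaining bases.

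In 22Rv1, NBL1 had 5, 5 and 6 counts with siSCR and vehicle and 36, 36 and 40 with R1881, and 12, 16 and 10 with siMETTL3 and vehicle and 44, 45 and 29 with R1881. It rose with R1881 by a log2 fold change of 2.80 (SE 0.348, adjusted p = 1.93e-06) with siSCR and of 1.87 (SE 0.295, adjusted p = 4.07e-05) with siMETTL3. As for SLC26A3, every siSCR vehicle library had under 10 counts and the filter was passed through other groups, so that both p-values are a description. The siMETTL3 libraries with vehicle were all above the siSCR libraries, at 0.608 ± 0.0840 against 0.285 ± 0.0368 CPM, but the difference of 1.09 (SE 0.411) was not called (adjusted p = 0.233). The R1881 level of 2.02 ± 0.0958 CPM stood beside 10.1 CPM in LNCaP:C4-2.

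PLA2G4E (ENSG00000188089; chromosome 15, 41981582 to 42051190, minus strand) had no count in the 3 LNCaP:C4-2 libraries with siSCR and vehicle and 63, 64 and 72 with R1881. Under siMETTL3 it had 0, 1 and 4 with vehicle and 60, 84 and 66 with R1881. With siSCR the R1881 libraries were at least 23.3-fold higher, and with siMETTL3 the log2 ratio was 5.43 (4.13 to 7.01). It was 7.17 without siMETTL3 vehicle replicate 3, which held 4 of the 5 vehicle counts, and 4.85 without the vehicle library that stood apart. Under R1881 the siRNAs overlapped, at 3.89 ± 0.216 and 4.02 ± 0.662 CPM. In 22Rv1 it had 1 to 7 counts per library in every group and did not pass the filter on low counts, and at this depth no R1881 difference was detectable: with siSCR the log2 ratio was 0.88 with a counting interval of -0.32 to 2.15, although the libraries of the 2 treatments did not overlap in CPM. Of its 5823 exon bases, 384 (6.59%) are shared with the antisense gene PLA2G4E-AS1, which had 4 to 14 counts per group.

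PNLIPRP3 (ENSG00000203837; chromosome 10, 116427867 to 116477957, plus strand) had 1, 0 and 1 counts in LNCaP:C4-2 with siSCR and vehicle and 60, 65 and 89 with R1881. After METTL3 knockdown it had no count in the 3 vehicle libraries and 73, 59 and 78 with R1881. The log2 ratio was 6.78 (4.95 to 9.87) with siSCR, and with siMETTL3 the R1881 libraries were at least 22.97-fold higher. Under R1881 the siRNAs overlapped, at 4.15 ± 0.573 and 4.03 ± 0.604 CPM. In 22Rv1 its vehicle libraries were at 0 with both siRNAs, and its R1881 libraries held 2, 0 and 0 counts with siSCR and 3, 0 and 2 with siMETTL3, all at or under the floor of 3 counts, so that no fold is given.

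PLA2G2A (ENSG00000188257; chromosome 1, 19975431 to 19980416, minus strand) was the member that androgen-treated LNCaP:C4-2 libraries nearly lacked. With siSCR it had 401, 369 and 368 counts with vehicle and 4, 3 and 2 with R1881. With siMETTL3 it had 600, 564 and 576 with vehicle and 29, 11 and 11 with R1881. The siMETTL3 libraries were above the siSCR libraries in both treatments. In CPM, it was at 21.1 ± 1.18 with vehicle and 0.179 ± 0.0669 with R1881 in siSCR cells (log2 ratio -6.88, -8.04 to -5.98), and at 33.97 ± 3.70 and 0.982 ± 0.613 in siMETTL3 cells (-5.11, -5.54 to -4.71). The siMETTL3 libraries were 1.61-fold higher with vehicle and 5.50-fold higher with R1881 (log2 ratio 2.46, 1.44 to 3.69). The second of these rests on 9 counts in the siSCR group, and without the library that stood apart the log2 ratio was 2.71. Without siMETTL3 R1881 replicate 1, which held 29 counts, it was 1.81, and the log2 ratio of R1881 to vehicle in siMETTL3 cells was -5.76. In 22Rv1 it had 1 count over the siSCR vehicle libraries, 7 in siMETTL3 vehicle replicate 3 and none in any other library, and did not pass the filter.

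TRIM47 (ENSG00000132481; chromosome 17, 75874161 to 75878575, minus strand) was the member with the smallest androgen difference. In LNCaP:C4-2 it had 72, 56 and 63 counts with siSCR and vehicle and 29, 17 and 40 with R1881, and with siMETTL3 it had 96, 94 and 102 with vehicle and 104, 83 and 67 with R1881. The siSCR treatments were apart (log2 ratio -1.11, -1.46 to -0.70) and the siMETTL3 treatments overlapped (-0.22, -0.47 to 0.03). Under R1881 TRIM47 was at 1.64 ± 0.510 CPM in siSCR cells and 4.87 ± 1.11 CPM in siMETTL3 cells, 2.97-fold higher, and with vehicle it was 3.54 ± 0.492 and 5.69 ± 0.435 CPM, 1.61-fold higher. In 22Rv1 it had between 257 and 435 counts per library and was not called in any contrast. The log2 fold change with R1881 was -0.02 (SE 0.116, adjusted p = 0.920) with siSCR and 0.10 (adjusted p = 0.557) with siMETTL3, and the siMETTL3 differences were 0.14 (adjusted p = 0.598) with vehicle and 0.25 (adjusted p = 0.130) with R1881. An unnamed gene on the opposite strand, ENSG00000267801, shares 1618 of its 3142 exon bases (51.5%), and it had 4 to 17 counts per group. The counting used no strand, and fragments on shared bases were dropped.

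**Figure D2:**
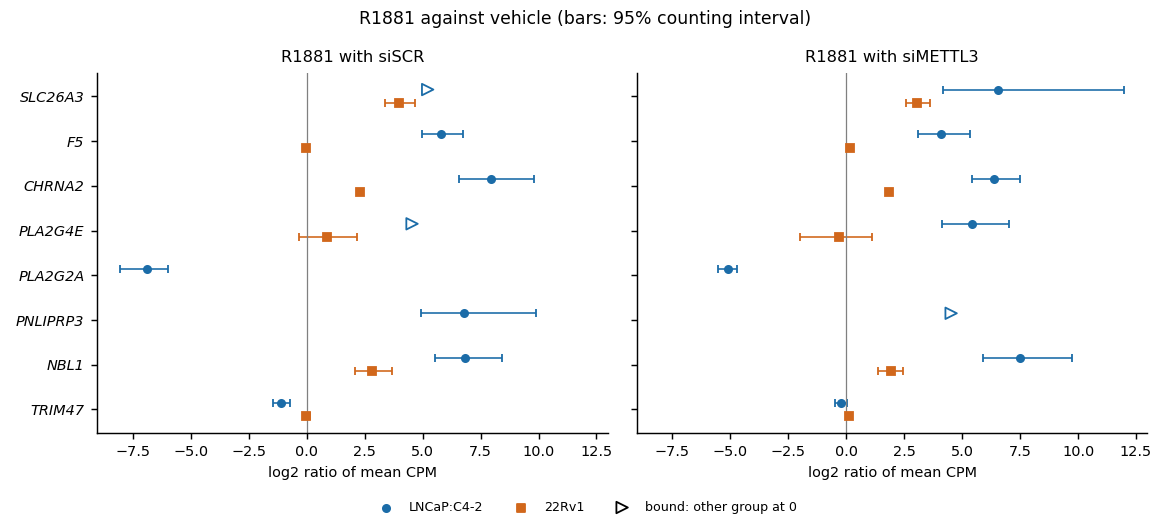
Log2 ratio of mean CPM, R1881 to vehicle (x axis), for each gene (y axis) with siSCR (left) and siMETTL3 (right), with bars for the 95% counting interval and open triangles for lower bounds where vehicle libraries were at 0. In LNCaP:C4-2 (circles) the ratios run from -6.88 to 7.97 with siSCR, and in 22Rv1 (squares) SLC26A3, CHRNA2 and NBL1 lie above 0 while F5 and TRIM47 lie at it.

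For the comparison that the choice of members did not use, 5 of the 8 members passed the filter on low counts in 22Rv1 (SLC26A3, CHRNA2, F5, NBL1 and TRIM47), and PLA2G4E, PLA2G2A and PNLIPRP3 did not. SLC26A3, CHRNA2 and NBL1 were called higher with R1881 with siSCR, and the same 3 with siMETTL3. SLC26A3 and NBL1 had under 10 counts, the minimum of the filter, in every siSCR vehicle library and passed it through other groups, so that the count over the 5 is a description. With no filter on low counts the same 3 were called with either siRNA. A call, here and below, is an adjusted p under 0.05 (Benjamini-Hochberg) and at least a 1.5-fold change, and such genes are termed DEGs. Of 17865 genes tested, 13.8% were DEGs for R1881 with siSCR (4.19% higher) and 13.5% with siMETTL3 (4.18% higher). For siMETTL3 with R1881, 1 member, F5, was a DEG, where 3.29% of genes were (2.3% higher). For siMETTL3 with vehicle no member was a DEG in edgeR or DESeq2, where 0.202% of genes were, and 3 members (F5, CHRNA2 and NBL1) had an unadjusted p under 0.05. Over all genes 2604 of 17865 had such a p. No member was called for the interaction of R1881 and siMETTL3 in edgeR or DESeq2, where 0.0168% of genes were. The closest was CHRNA2 (difference of log2 fold changes -0.47, SE 0.151, unadjusted p = 0.00496, adjusted p = 0.802), the single member with an unadjusted p under 0.05. Over all genes 1101 of 17865 had such a p for the interaction. When both 22Rv1 libraries that stood apart were left out, 3, 3, 0, 1 and 0 members were called in these contrasts, in the order R1881 with siSCR, R1881 with siMETTL3, siMETTL3 with vehicle, siMETTL3 with R1881 and interaction. Over all genes 2948, 2479, 141, 792 and 215 were called in the same order.

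**Figure D3:**
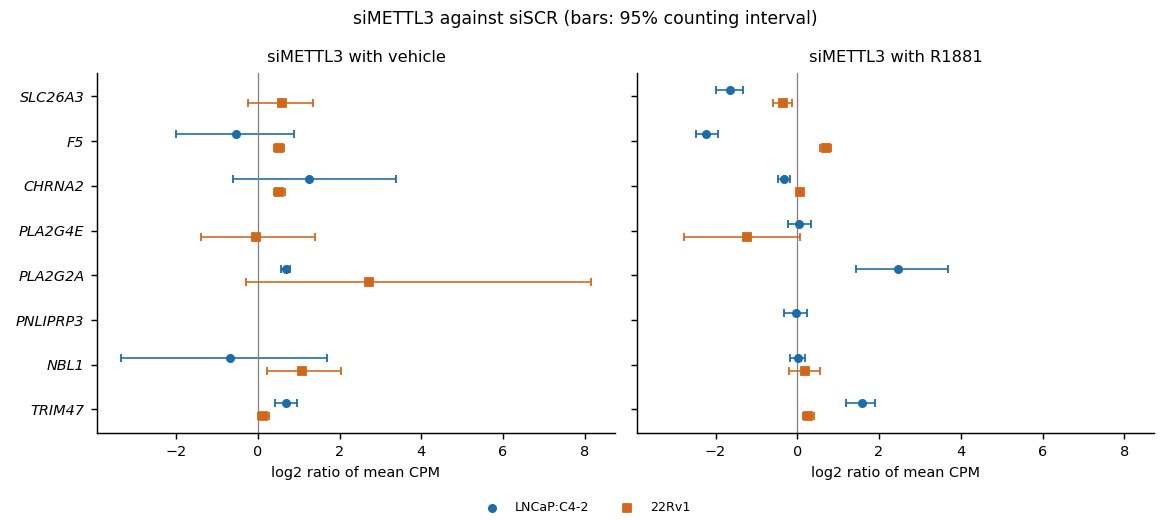
Log2 ratio of mean CPM, siMETTL3 to siSCR (x axis), for each gene (y axis) with vehicle (left) and R1881 (right), with bars for the 95% counting interval and no symbol where both groups were at or under the floor or 1 was at 0. With R1881 the ratio of F5 lies at -2.24 in LNCaP:C4-2 (circles) and above 0 in 22Rv1 (squares), whose wide bars mark genes with under 10 counts in a library.

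Across knockdown in LNCaP:C4-2, the members were divided. With R1881, SLC26A3, F5 and CHRNA2 were lower with siMETTL3, PLA2G2A and TRIM47 were higher, and PLA2G4E, PNLIPRP3 and NBL1 overlapped. With R1881, 15.3% of genes were higher in this non-overlapping sense and 18.1% lower. With vehicle, PLA2G2A and TRIM47 were higher and the others overlapped, where 12% of genes were higher and 10% lower. With R1881 against vehicle in siMETTL3 cells, 6 members were higher and PLA2G2A was lower, where 15.9% and 17.6% of genes were. Without both libraries that stood apart, 8, 7, 3 and 6 members had non-overlapping groups for R1881 with siSCR, R1881 with siMETTL3, siMETTL3 with vehicle and siMETTL3 with R1881, in place of 8, 7, 2 and 5. With fewer libraries groups separate more easily, and shares over all genes are not given for these smaller sets. Nothing is therefore read from the change in these counts. Bulk libraries cannot tell fewer cells that express a gene from less RNA in each cell.

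Per kilobase of exon that is not shared with another gene, which allows levels of different genes to be compared, PLA2G2A was the most abundant member in LNCaP:C4-2 with siSCR and vehicle, at 12.5 ± 0.699 CPM per kb. TRIM47 followed at 2.32 ± 0.323, and the other 6 were at 0 to 0.0489. With R1881 the order was NBL1 (5.53 ± 1.504), CHRNA2 (3.77 ± 0.472), SLC26A3 (1.83 ± 0.262), PNLIPRP3 (1.76 ± 0.244), F5 (1.75 ± 0.511), TRIM47 (1.08 ± 0.335), PLA2G4E (0.715 ± 0.0397) and PLA2G2A (0.106 ± 0.0397). SLC26A3, PNLIPRP3 and F5 did not differ beyond their spread. With R1881, the 6 genes near 0 with vehicle stood above between 19.5% (PLA2G4E) and 47.2% (CHRNA2) of genes tested in CPM per exon base. Here all exon bases of each gene were used, shared ones included. NBL1 stood above 42.2% of genes on this measure, although 47.3% of its bases are shared and fragments there were dropped. Its place by unshared bases was not ranked. PLA2G2A stood above 75.2% of genes with vehicle and above 3.19% with R1881. In 22Rv1 with siSCR and R1881, CHRNA2 (13.1 ± 0.655 CPM per kb) and TRIM47 (10.4 ± 0.315) led, followed by SLC26A3 (1.91 ± 0.565), F5 (1.87 ± 0.155) and NBL1 (1.11 ± 0.0525), and SLC26A3 and F5 did not differ beyond their spread.

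As a scale for these values, the androgen-regulated genes KLK3 and FKBP5 were at 19.7 ± 3.35 and 85.1 ± 5.21 CPM with siSCR and vehicle in LNCaP:C4-2 and at 335 ± 30.3 and 964 ± 75.8 CPM with R1881. In 22Rv1, FKBP5, a co-chaperone of steroid receptors, was at 183 ± 6.27 and 1848 ± 71.4 CPM, and KLK3 was at 6.60 ± 0.314 and 6.56 ± 0.712 CPM. SLC26A3, CHRNA2 and NBL1 thus went with FKBP5 in being higher with R1881 in both lines, and F5 with KLK3 in being higher with R1881 in LNCaP:C4-2 and overlapping in 22Rv1. Whether the lines differ was not tested. By quantitative PCR, the paper reports that androgen induced KLK3 in its prostate cancer cell lines. The reason for the difference from the 22Rv1 counts was not tested.

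The genes whose log2 CPM over the 24 libraries was most like that of each member are given as a description. The libraries form 8 groups that share siRNA, treatment and line, so that the correlation reflects the groups more than single libraries. SLC26A3 was most like AKAP12 (Pearson r = 0.971), FKBP5 (0.967) and ELOVL5 (0.966), and F5 most like ALDH1A1 (0.977), AFF3 (0.975) and ELL2 (0.973). CHRNA2 was most like CARTPT (0.978), KLF15 (0.966) and KLF5 (0.962). For PNLIPRP3 MAF (0.981) and PIK3AP1 (0.980) were among them, and for PLA2G4E they were ADAM7 (0.959), KLK2 (0.958) and PIK3AP1 (0.954). NBL1 was most like PGC (0.976), PMEPA1 (0.973) and ARSG (0.969), TRIM47 most like BEX5 (0.971), ITGB5 (0.965) and AARS1 (0.964), and PLA2G2A most like PLA2G2F (0.983), RAP2B (0.980) and NFKB1 (0.974). Among the members themselves the pattern of PNLIPRP3 was closest to PLA2G4E (0.93), and F5 was the near mirror image of PLA2G2A (-0.98).

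PLA2G2F, a secreted phospholipase A2 like PLA2G2A, is also its neighbour in the gene cluster on chromosome 1, 158910 bases away. In LNCaP:C4-2 with siSCR it had 21, 15 and 18 counts with vehicle and 3, 0 and 0 with R1881, and with siMETTL3 it had 36, 39 and 32 with vehicle and 6, 2 and 2 with R1881. Its libraries were thus low and high in the same groups as those of PLA2G2A. The log2 ratio of R1881 to vehicle was -4.08 (counting interval -6.42 to -2.47) with siSCR and -3.44 (-4.54 to -2.50) with siMETTL3. PLA2G2F is named here for its likeness to PLA2G2A over the same libraries, so that these values are a description with no test.

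PLA2G5, another secreted phospholipase A2, lies between PLA2G2A and PLA2G2F, 47763 bases from PLA2G2A, and went the other way. In LNCaP:C4-2 it had 0, 2 and 0 counts with siSCR and vehicle and 31, 16 and 16 with R1881, and 1, 1 and 0 with siMETTL3 and vehicle and 28, 25 and 18 with R1881. Every R1881 library was above every vehicle library, with log2 ratios of 5.11 (counting interval 3.14 to 8.13) with siSCR and 5.10 (3.22 to 8.20) with siMETTL3. With vehicle it had at most 2 counts in a library and so passed the filter through the R1881 libraries, and no test is given. In 22Rv1 it had 0 to 4 counts per library with siSCR, 0 to 2 with siMETTL3 and vehicle and 9, 7 and 7 with siMETTL3 and R1881, and did not pass the filter. The neighbour on the other side, PLA2G2E, had no count in any library.

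PNLIP, the gene of pancreatic triglyceride lipase, is the next protein-coding gene after PNLIPRP3, 67974 bases away, and had the same on-off form. In LNCaP:C4-2 it had no count in any of the 6 vehicle libraries, 18, 21 and 36 with R1881 and siSCR, and 22, 16 and 18 with R1881 and siMETTL3. With R1881 PNLIP was at least 8.64-fold higher with siSCR and at least 6.13-fold higher with siMETTL3. It passed the filter through the R1881 libraries, and no test is given. In 22Rv1 its vehicle libraries were at 0 and its R1881 libraries held 1 to 4 counts. CCDC172, on the other side of PNLIPRP3, had no count in any library.

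**Figure D4:**
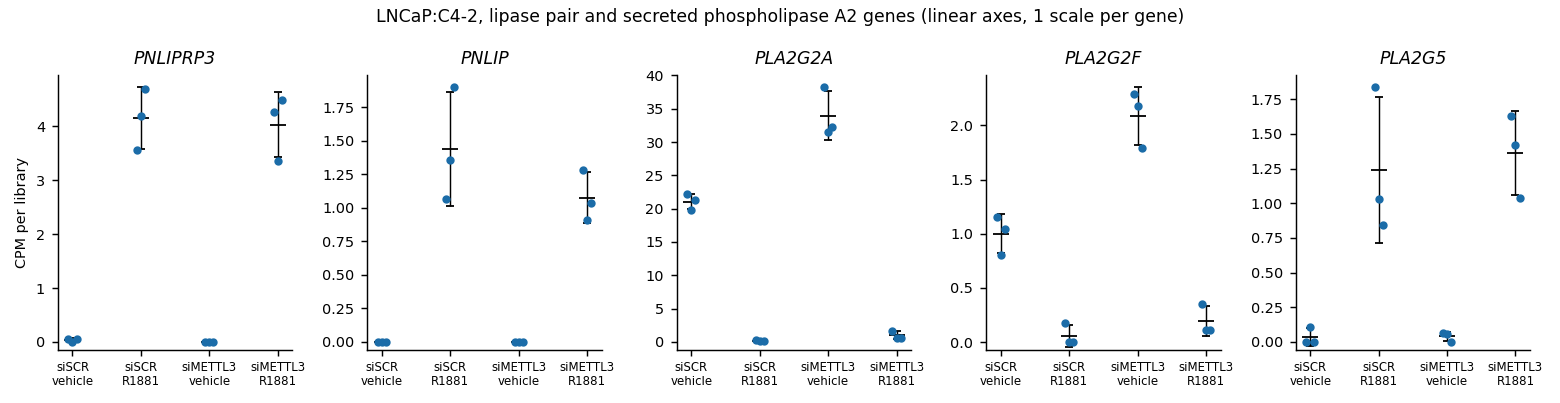
Level in CPM (y axis, linear, 1 scale per panel) in the 12 LNCaP:C4-2 libraries of PNLIPRP3 and its neighbour PNLIP and of PLA2G2A and its neighbours PLA2G2F and PLA2G5, with points for libraries, dashes for means and bars for the SD (n = 3). PNLIPRP3, PNLIP and PLA2G5 are high in the R1881 groups, and PLA2G2A and PLA2G2F in the vehicle groups.

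The neighbours of the other members differed less. CBLL1, which encodes a protein associated with the m6A methyltransferase complex, ends 3800 bases from SLC26A3 on the other strand. CBLL1 was at 63.3 ± 1.87 CPM with vehicle and 122 ± 3.78 CPM with R1881 in LNCaP:C4-2 with siSCR, a log2 fold change of 0.94 (edgeR adjusted p = 4.95e-06). In 22Rv1 its log2 fold change of 0.38 (adjusted p = 0.00251) was under 1.5-fold. PTK2B, 370 bases from CHRNA2, was lower with R1881 by less than 1.5-fold in both lines with siSCR (log2 fold change -0.33, adjusted p = 0.0193, and -0.39, adjusted p = 0.00271). SLC19A2, 28163 bases from F5, rose with R1881 in LNCaP:C4-2 with siSCR by 0.60 (adjusted p = 0.00200), while SELP, 2261 bases away on the other side, had no count in any library. PLA2G4D, a cytosolic phospholipase A2 next to PLA2G4E, 15819 bases away, was not called for R1881 in LNCaP:C4-2 (0.55, adjusted p = 0.114) and rose there with siMETTL3 and vehicle by 1.41 (SE 0.237, adjusted p = 0.00977), from 10.3 ± 3.57 to 27.9 ± 5.41 CPM. TRIM65, 1760 bases from TRIM47, was not called in any contrast of either line.

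The members' families and pathways were counted next, members left out. Of 24 further phospholipase A2 genes, 15 passed the filter in LNCaP:C4-2. With R1881 and siSCR, 3 were DEGs higher (PNPLA8, PLA2G12A and PLA2G5, described above) and 1 lower (PLA2G2F, also above). PLA2G5 and PLA2G2F passed the filter through the treatment where they were high, so that their calls are a description. Over all genes tested 15.1% were DEGs in LNCaP:C4-2 and 13.8% in 22Rv1, which is the background for the counts of each list. PNPLA8, a mitochondrial and peroxisomal member, rose by 0.79 (edgeR adjusted p = 0.000625) and PLA2G12A by 0.62 (adjusted p = 0.00100). In 22Rv1, 14 passed the filter, 2 rose (PLA2G4A, 0.90, and PNPLA8, 0.67) and 1 fell (PLA2G7, -0.84). Downstream of these enzymes, of 24 genes of arachidonic acid metabolism 16 passed in LNCaP:C4-2, 3 rose and 2 fell. PTGER4, a receptor for prostaglandin E2, rose by 4.12 (SE 0.229), from 1.42 ± 0.222 to 25 ± 3.57 CPM, and HPGD, which inactivates prostaglandins, rose by 3.89 (SE 0.276), from 1.06 ± 0.267 to 15.9 ± 1.86 CPM. TBXAS1, thromboxane synthase, rose by 1.06 and PTGES, a prostaglandin E synthase, fell by 1.29. In 22Rv1, 17 passed, ALOX15B (2.17) and HPGD (1.16) rose, and PTGDS (-1.19) and PTGES (-0.94) fell.

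Against the same background of 15.1% in LNCaP:C4-2 and 13.8% in 22Rv1, 16 lipase genes of the pancreatic and acid families were counted. In LNCaP:C4-2, 6 passed, and CEL (-1.42) and LIPG (-0.69) fell with R1881. PNLIP, described above, was the third DEG, and its call is a description because it passed the filter through the R1881 libraries. In 22Rv1, 5 passed, edgeR and DESeq2 called none, and 2 had an unadjusted p under 0.05. Over all 22Rv1 genes 7617 of 17865 had such a p. Of 16 SLC26 exchangers and partners, 8 passed in LNCaP:C4-2 and 11 in 22Rv1, and edgeR and DESeq2 called none for R1881 with siSCR in either line, with 3 and 1 at an unadjusted p under 0.05. Over all LNCaP:C4-2 genes 5937 of 16435 had such a p, and the 22Rv1 number is given above. Of 22 nicotinic receptor subunits, chaperones and enzymes of acetylcholine, 12 passed in LNCaP:C4-2, 2 rose and 3 fell. BCHE, which hydrolyses acetylcholine, fell by 4.16 (SE 0.300, edgeR adjusted p = 5.99e-08), from 25.7 ± 4.11 to 1.47 ± 0.928 CPM, and CHRNA7 (-1.51) and CHRNA10 (-1.11) fell while CHRNE (1.17) rose. In 22Rv1, 11 passed and 3 fell, BCHE (-1.42), LYNX1 (-0.93) and CHRNB4 (-0.80).

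Beside 15.1% and 13.8% of all genes in the respective lines, of 31 genes of the coagulation cascade, 14 passed in LNCaP:C4-2, 4 rose, with TFPI (1.37), an inhibitor of the pathway, and VWF (0.94) among them, and 2 fell, F10 (-0.95) and F8 (-0.86). In 22Rv1, 18 passed, 4 rose and 4 fell. F3, tissue factor, rose by 3.35 (SE 0.199), from 0.852 ± 0.0780 to 8.79 ± 1.02 CPM, F2RL1 rose by 0.70, and FGB (-3.86) and F12 (-0.73) fell. FGB was at 6.63 ± 0.785 CPM with vehicle and 0.450 ± 0.170 CPM with R1881. It passed the filter through groups other than siSCR with R1881, so that its call is a description. Of 36 BMP genes, 21 passed in LNCaP:C4-2, 2 rose and 8 fell. The receptor gene BMPR1B rose by 3.02, and BMP7 (-1.84), the decoy receptor gene BAMBI (-1.81) and the target gene ID2 (-1.80) fell. In 22Rv1, 22 passed, 1 rose and 10 fell, with the inhibitor gene FST (-2.78), BMP2 (-1.56), BAMBI (-1.45) and SMAD6 (-1.14) among those that fell. Of 45 TRIM genes, 39 passed in each line. In LNCaP:C4-2, 2 rose, TRIM36 (1.42) and TRIM13 (0.73), and 3 fell, with TRIM45 (-0.79) and TRIM25 (-0.71) among them. In 22Rv1, TRIM46 (-0.98) and TRIM9 (-0.83) fell.

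The median log2 fold change with R1881 and siSCR ran from -0.63 (lipases) to 0.22 (phospholipases A2) over the 8 lists in LNCaP:C4-2 and from -0.58 (BMP genes) to 0.23 (phospholipases A2) in 22Rv1, beside -0.03 and 0.00 over all genes tested. With PNLIP at its lower bound the lipase median was the same. With siMETTL3, R1881 made 30 list genes DEGs in LNCaP:C4-2, where 10.6% of all genes were, in place of 38 with siSCR, and 31 in 22Rv1 with either siRNA. The 38 include PLA2G5, PLA2G2F and PNLIP, which passed the filter through the treatment where they were high. The 31 of 22Rv1 with siSCR include FGB, whose call is likewise a description. For knockdown, 2 of 131 list genes were called in LNCaP:C4-2 with vehicle, PLA2G4D (above) and BCHE, which fell by 1.28 (adjusted p = 0.0172), where 1.2% of all genes were. With R1881 edgeR called none in LNCaP:C4-2, where 0.7% of all genes were, while 55 had an unadjusted p under 0.05 and DESeq2 called 9. Over all genes 4702 of 16435 had an unadjusted p under 0.05 there. The share of all genes that DESeq2 called is not given. In 22Rv1 edgeR and DESeq2 called none of 137 with vehicle (20 had an unadjusted p under 0.05), and with R1881 VKORC1 (1.30), F12 (0.71) and TRIM41 (0.60) rose and ACVR1 (-0.60) fell. Over all genes 2604 of 17865 had an unadjusted p under 0.05 with vehicle. DEGs were 0.202% of all genes with vehicle and 3.29% with R1881. Without both LNCaP:C4-2 libraries that stood apart, 44, 37, 9 and 21 list genes were called there for R1881 with siSCR, R1881 with siMETTL3, siMETTL3 with vehicle and siMETTL3 with R1881. The share of all genes called without these libraries is not given, so that nothing is read about the lists from these counts.

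**Figure D5:**
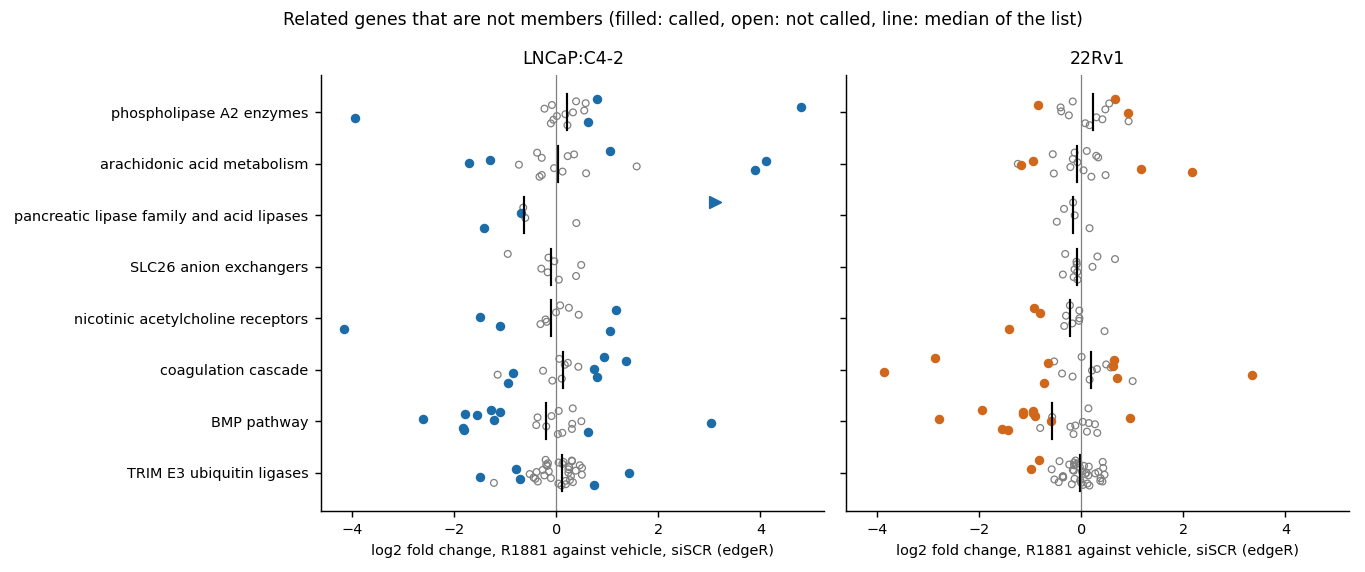
Log2 fold change for R1881 against vehicle with siSCR (x axis, edgeR) of genes related to the members (y axis, 8 lists, members left out) in LNCaP:C4-2 (left) and 22Rv1 (right), with filled points for DEGs, open points for other genes tested, vertical strokes for list medians and a triangle for the lower bound of PNLIP. The medians lie between -0.63 and 0.23, and the points far from 0 include PTGER4, HPGD, PLA2G5, BCHE and PLA2G2F in LNCaP:C4-2 and FGB and F3 in 22Rv1.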

How the data were processed

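Counts per gene were deposited for 24 libraries. Per the labels and the study's methods, the authors trimmed paired reads (Trim Galore, cutadapt, FastQC) and used STAR with GRCh38 for alignment before counting. Per the file headers, featureCounts 1.5.0 used Ensembl release 83 with no strand option, so fragments on exons of 2 genes, and fragments with several alignments, were not counted. The deposited gene length, a base count in the files, was used for levels per exon base.

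Each line was fitted on its 12 libraries with edgeR 4.0.16 (R 4.3.3): genes kept by filterByExpr (at least 10 counts, 15 in total), TMM factors, 1 mean per group, quasi-likelihood test with 8 residual degrees of freedom, Benjamini-Hochberg adjustment over all genes tested. A DEG had an adjusted p under 0.05 and a change of at least 1.5-fold; for the interaction no fold was required. DESeq2 1.42.0 was an alternative. SEs were derived from the test statistic. Fits were tested on simulated data. CPM and ratios in the text divide counts by TMM effective library sizes over all 24 libraries. Bounds used a floor of 3 counts per library, and 95% counting intervals of ratios are exact conditional binomial ones. Log2 CPM for correlations used a prior count of 2.

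The members and the gene lists were chosen with earlier results of these data known. Named were the 8 members, METTL3, KLK3 and FKBP5, in each list up to 4 DEGs of R1881 with siSCR of at least 1 CPM by size of change, the nearest protein-coding neighbour on each side, genes sharing exons, and the 3 genes most alike. VKORC1, TRIM41 and ACVR1 lie outside this rule and were named after their values were seen. Some genes that the rule names are not reported here. Same-numbered libraries did not deviate together (mean correlation -0.0127 over 18 pairs in LNCaP:C4-2 and -0.00739 in 22Rv1), so no pairing was used. Symbols were found for 56558 of 60675 gene IDs.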

Additional observations from a re-analysis of the deposited data

Results flagged for a closer look

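F5 moved in opposite directions in the lines when METTL3 was knocked down under R1881. Every siMETTL3 library lay below every siSCR library in LNCaP:C4-2 and above every siSCR library in 22Rv1. The log2 ratio in LNCaP:C4-2 minus that in 22Rv1 was -2.93 (-2.24 against 0.69). The LNCaP:C4-2 ratio is among the values that chose the members, and the difference between the lines was not tested.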

How the results depend on the processing

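In 22Rv1, 3 members for R1881 with siSCR, 3 for R1881 with siMETTL3, 1 for siMETTL3 with R1881 and 0 for the interaction were called under every alternative run: DESeq2, RLE factors, library size alone, 2 other filters on low counts, only the 6 libraries compared and no fold threshold (neither for the interaction), an adjusted p under 0.01, each library left out and both libraries that stood apart left out (chosen after seeing the data). For R1881 the counts include SLC26A3 and NBL1, which passed the filter on low counts through other groups, and they remain a description. With siMETTL3 and vehicle, 0 were called, 2 with no fold threshold, and 0 to 1 with each library left out, the call being CHRNA2 without siSCR vehicle replicate 1. Uncalled values that changed sign with a library left out were TRIM47 for R1881 with siSCR (-0.02, range -0.11 to 0.13, above 0 without siSCR vehicle replicate 1 or siSCR R1881 replicate 1, the latter at 0.0067), F5 for R1881 with siSCR (-0.04, range -0.0878 to 0.0231, above 0 without siSCR R1881 replicate 3) and TRIM47 for the interaction (0.11, range -0.036 to 0.21, below 0 without siSCR vehicle replicate 1).

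Adding a replicate block, the pairing that shared numbers would give, 3, 3, 0, 1 and 0 members were called in 22Rv1, and no member's call changed. Over all genes 2418, 2351, 29, 544 and 3 were called. The member counts for R1881 include SLC26A3 and NBL1 and remain a description.

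In LNCaP:C4-2 the members with non-overlapping groups numbered 8 for R1881 with siSCR (8 to 8 with each library left out), 7 for R1881 with siMETTL3 (7 to 8), 2 for siMETTL3 with vehicle (2 to 4, the latter without siSCR vehicle replicate 2) and 5 for siMETTL3 with R1881 (5 to 6). A group with fewer libraries separates more easily, and no share over all genes is given beside these ranges, so nothing is read from them. Ratios of CPM do not depend on a test, filter, block or threshold, so those alternatives give no other value there. With a floor of 1 count the lower bounds for SLC26A3, PLA2G4E (siSCR) and PNLIPRP3 (siMETTL3) were 6.80, 6.13 and 6.11 on the log2 scale.

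Of family list genes in LNCaP:C4-2, 2 were called for siMETTL3 with vehicle (4 by DESeq2, 9 without both libraries that stood apart) and 0 for siMETTL3 with R1881 (9 by DESeq2, 1 with RLE factors, 21 without both libraries). No count over all genes is given for these alternatives in LNCaP:C4-2, so that nothing is read about the lists. In 22Rv1, 0 were called for siMETTL3 with vehicle and 2 without both libraries that stood apart there. Over all 22Rv1 genes, siMETTL3 with vehicle gave 36 DEGs, 141 without both libraries, 87 with no filter, 14 with 6 libraries, 100 with no fold threshold, 21 at an adjusted p under 0.01 and 15 to 228 with each library left out (228 without siMETTL3 vehicle replicate 1). The interaction gave 3, 215 without both libraries, 79 with no filter and 2 to 30 with each library left out (30 without siSCR vehicle replicate 3). For siMETTL3 with R1881 there were 587 DEGs, 2897 with no fold threshold, 304 at the stricter adjusted p and 309 to 697 with each library left out (309 without siMETTL3 R1881 replicate 1). With no fold threshold, R1881 gave 5903 in place of 2471 (siSCR) and 5917 in place of 2406 (siMETTL3). With each library left out it gave 2067 to 2855 DEGs with siSCR and 2173 to 2514 with siMETTL3. At the stricter adjusted p it gave 1970 and 1958. The causes were not tested.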
